A study of Mus musculus with 12 samples.

Results

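Cartilage and early bone markers were examined in mouse embryos at E12.5, the stage at which most of the skeleton is still cartilage or condensing mesenchyme. The set held 10 genes chosen by name, namely *Runx2*, *Sp7*, *Sox5*, *Ibsp*, *Alpl*, *Acan*, *Matn1*, *Matn3*, *Matn4* and *Hapln1*, and all 10 were found among the 23420 genes listed in both count tables. RNA was prepared from whole embryos and sequenced after polyA enrichment, with 1 library per embryo. In the *Carm1* line, on a C57BL/6 background, 3 embryos null for *Carm1* through the Carm1tm1Mtb allele (*Carm1* KO/KO) were compared with 3 wild-type embryos. In the *Pax3* line, on a mixed background, 3 embryos null for *Pax3* through the splotch allele Pax3Sp2H (*Pax3* Sp2H/Sp2H) were compared with 3 wild-type embryos. All embryos came from intercrosses of heterozygotes and were null in every tissue, with no tissue-restricted deletion, and the sources do not say which embryos shared a litter. The spread between replicates is therefore the spread between these embryos.

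Endochondral bones form from mesenchyme that condenses, becomes cartilage and is later replaced by bone. SOX9, with its partners SOX5 and SOX6, drives the chondrocyte program, and the chondrocytes secrete a matrix of type II, IX and XI collagens, aggrecan, link protein and matrilins. RUNX2 and then SP7 (osterix) commit cells to the osteoblast fate, after which alkaline phosphatase and bone sialoprotein accompany the first mineral.

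The libraries held 17183344 to 23518692 counts, of which 2769 to 4868 per library fell on the 10 genes. Levels are given as CPM, the counts scaled to library size with TMM factors of each line, and fold changes are mutant over wild type on the log2 scale. A gene was called when edgeR gave it an FDR adjusted *P* below 0.05. *Carm1* itself was at 69.3 to 76.2 CPM in *Carm1* KO/KO embryos and 136.9 to 150.7 in wild types, and *Pax3* at 18.1 to 22.4 CPM in *Pax3* Sp2H/Sp2H embryos and 25.0 to 30.9 in wild types. Chondrocyte transcripts were plentiful, with *Col2a1*, the type II collagen gene, between 404.6 and 688.9 CPM in all 12 libraries, whereas *Bglap* (osteocalcin), a marker of mature osteoblasts, stayed below 0.45 CPM and was not tested. Y-linked transcripts were present in 4 libraries, *Carm1*-line wild type 3, *Pax3* Sp2H/Sp2H 3 and *Pax3*-line wild types 2 and 3, and so were not evenly spread over the groups.

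Promoter sequence is shown for the 4 genes on which the comparisons below turn, *Acan*, *Matn1*, *Matn4* and *Hapln1*, because they include the 3 markers lower in the *Carm1* line and the 2 that differed between the lines. Each window holds the 250 bases before a RefSeq transcription start on GRCm38.p6, written 5′ to 3′ on the strand of the gene. The positions are chr7:79052976-79053225 (plus strand) for *Acan*, chr4:130944135-130944384 (plus strand) for *Matn1*, chr2:164405161-164405410 (minus strand) for the first of the *Matn4* windows, and chr13:89540386-89540635 (plus strand) for *Hapln1*. Capitals mark a SOX core (ACAAT or ACAAAG) or a RUNX core (ACCACA), read on either strand.
Acan: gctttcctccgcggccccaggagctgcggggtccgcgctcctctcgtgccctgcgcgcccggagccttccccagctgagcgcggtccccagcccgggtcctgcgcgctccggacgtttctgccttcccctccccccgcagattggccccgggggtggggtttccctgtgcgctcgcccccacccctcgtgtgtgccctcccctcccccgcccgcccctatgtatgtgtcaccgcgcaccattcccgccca
Matn1: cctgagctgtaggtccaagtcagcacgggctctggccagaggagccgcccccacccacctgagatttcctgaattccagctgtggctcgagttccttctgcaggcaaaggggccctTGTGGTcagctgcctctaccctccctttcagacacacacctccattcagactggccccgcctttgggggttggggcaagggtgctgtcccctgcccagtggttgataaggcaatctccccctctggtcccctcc
Matn4: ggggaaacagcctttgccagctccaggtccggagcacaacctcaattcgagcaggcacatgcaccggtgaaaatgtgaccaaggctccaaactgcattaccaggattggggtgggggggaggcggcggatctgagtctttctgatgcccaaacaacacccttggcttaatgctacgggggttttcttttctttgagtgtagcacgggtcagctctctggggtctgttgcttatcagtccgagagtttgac
Hapln1: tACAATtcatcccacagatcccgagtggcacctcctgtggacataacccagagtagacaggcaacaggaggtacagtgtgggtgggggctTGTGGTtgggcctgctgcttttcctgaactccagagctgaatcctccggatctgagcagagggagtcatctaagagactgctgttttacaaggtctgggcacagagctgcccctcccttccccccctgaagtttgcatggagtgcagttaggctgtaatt

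Windows were found for 9 of the 10 genes, 11 windows in all, with no entry for *Sp7*. A SOX core was present in 6 of the 11, beside 38.8% of 32817 windows of the same length over all genes, and a RUNX core in 3 of the 11, beside 14.0%. The windows of *Hapln1* and *Runx2* held both, the window of *Matn1* held a RUNX core, and the windows of *Acan* and *Matn4* held neither. A match is only a run of letters, and no match says only that these letters are not in this window. The *Acan* window ends at 79053225, before the GENCODE start of the gene at 79053483, so it does not adjoin that start. The bases after its RefSeq start matched no GENCODE transcript of *Acan*. The *Hapln1* window lies after the GENCODE start of that gene at 89539796, and so within the annotated gene. The bases after the RefSeq start of *Hapln1* did match a GENCODE transcript of the gene.

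**Figure D1:**
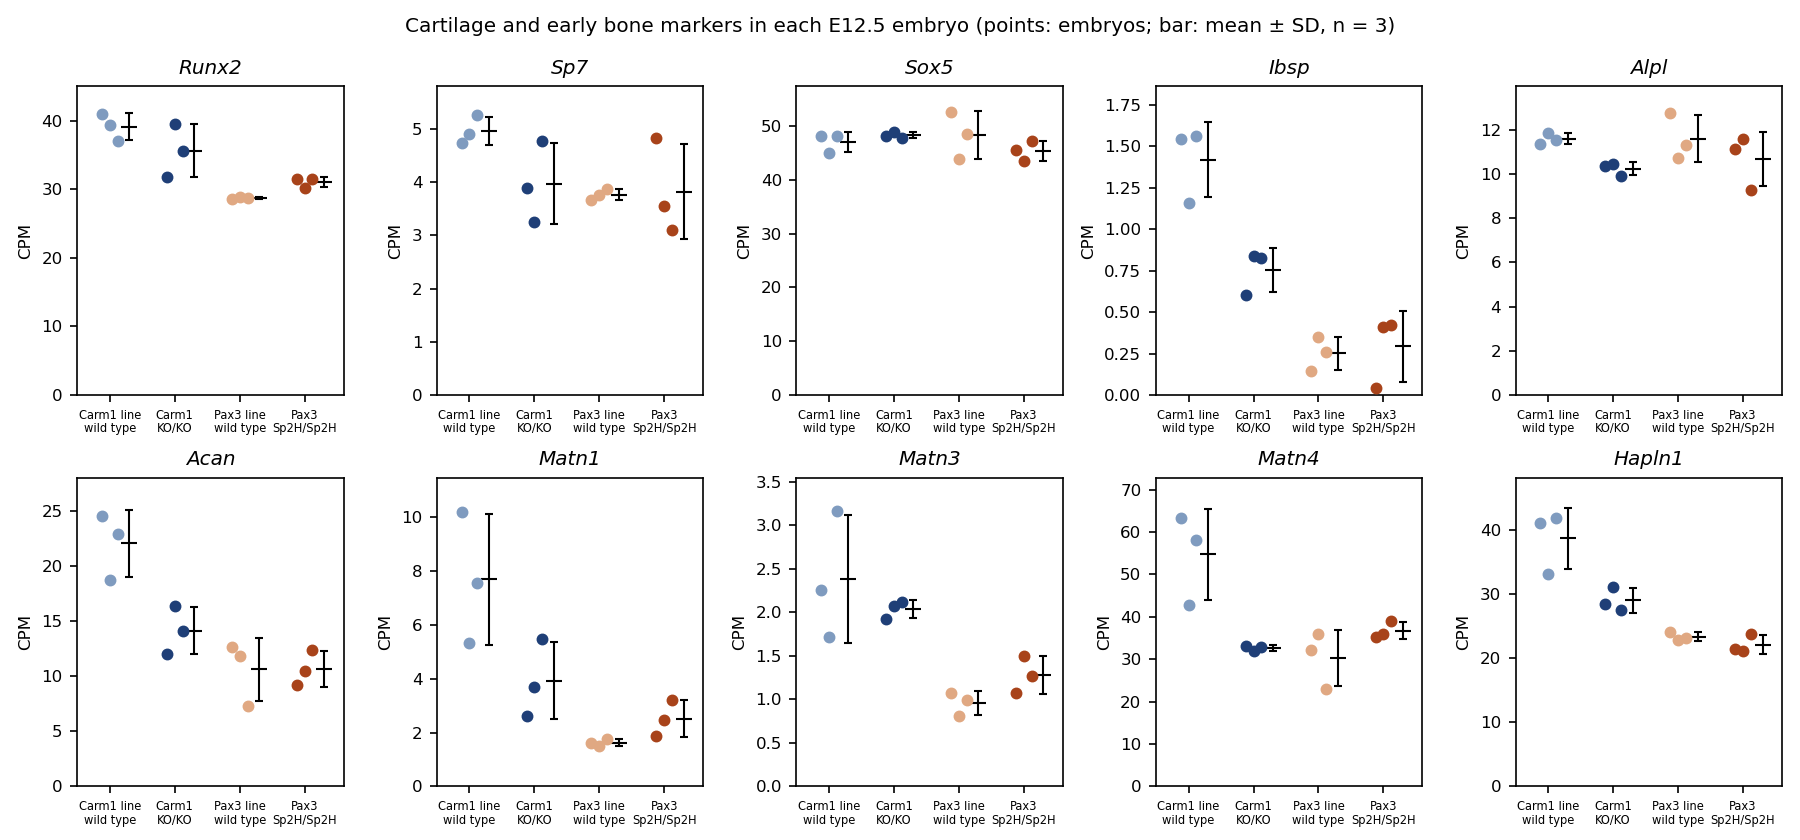
Level of each of the 10 markers in CPM (y axes start at 0) in the 4 groups. Points are embryos and bars the mean ± SD (n = 3). The *Carm1* KO/KO embryos lie below all wild types of their line for *Ibsp*, *Alpl*, *Acan*, *Matn4* and *Hapln1*, whereas in the *Pax3* line *Matn1* and *Runx2* are the markers without overlap, higher in the mutants.

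In *Carm1* KO/KO embryos the markers called were all cartilage matrix genes, and the transcription factors were not called. At an adjusted *P* below 0.05, 3 of the 10 markers were lower and 0 higher, where 7.83% of the 15811 genes tested were called lower and 5.49% higher. The 3 were *Acan*, *Matn4* and *Hapln1*. Of the 10, 9 had a log2 fold change below 0 and 5 were lower in each mutant embryo than in every wild-type embryo, a pattern shown by 15.7% of all genes tested (30.0% without overlap in either direction). The median log2 fold change of the 10 was -0.37, beside 0.0014 over all genes. In RNA from whole embryos, fewer cells of a type and less RNA per cell cannot be told apart.

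Among the transcription factors, *Runx2*, the first determinant of the osteoblast lineage, was at 31.8, 39.5 and 35.6 CPM in the *Carm1* KO/KO embryos and at 41.0, 39.5 and 37.1 in the wild types. The groups overlapped, and the log2 fold change of -0.13 (SE 0.071) was not called (adjusted *P* = 0.22). *Sp7*, which acts after *Runx2*, was at 3.90, 3.25 and 4.77 CPM in the mutants and at 4.74, 4.90 and 5.27 in the wild types. Only the third mutant reached the wild-type range, and the difference of -0.33 (SE 0.17) was not called (adjusted *P* = 0.23). *Sox5*, the partner of SOX9, was the 1 marker above its wild type, at 47.7 to 48.9 CPM against 45.0 to 48.2, a log2 fold change of 0.04 (adjusted *P* = 0.73).

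The 2 markers of bone matrix and mineral were not called. Both were lower in the mutants without overlap, as were 15.7% of all genes tested. *Ibsp*, which encodes bone sialoprotein, was at 0.604, 0.840 and 0.825 CPM in the *Carm1* KO/KO embryos and at 1.54, 1.16 and 1.56 in the wild types. Every mutant lay below every wild type, on counts of 11, 15 and 14 against 26, 27 and 32. The log2 fold change was -0.90 (SE 0.34, adjusted *P* = 0.077). *Alpl*, encoding the tissue-nonspecific alkaline phosphatase, was at 10.4, 10.5 and 9.90 CPM in the mutants against 11.4, 11.9 and 11.6, again without overlap, and its change of -0.18 (SE 0.11) was not called (adjusted *P* = 0.29).

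*Acan* encodes aggrecan, the proteoglycan that gives cartilage its swelling pressure. It was at 12.02, 16.4 and 14.1 CPM in the *Carm1* KO/KO embryos and at 24.6, 18.7 and 22.9 in the wild types. Every mutant lay below every wild type, and wild type 2 lay nearest to the mutants. *Acan* fell by 0.63 on the log2 scale (SE 0.11, adjusted *P* = 2.2e-04), and 1 of 16 alternative settings, the fit of all 12 libraries together, did not call it (adjusted *P* = 0.056). *Hapln1* encodes the link protein that fixes aggrecan to hyaluronan. It was at 28.4, 31.1 and 27.5 CPM in the mutants and at 41.0, 33.1 and 41.8 in the wild types, also without overlap and with wild type 2 lowest of its group. *Hapln1* fell by 0.41 (SE 0.079, adjusted *P* = 5.5e-04), and this call was made in all 16 alternative settings.

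The matrilins are adaptor proteins that join collagen fibrils and proteoglycans. *Matn4*, the most broadly expressed of the 3 in this set, was at 33.2, 31.9 and 32.8 CPM in the *Carm1* KO/KO embryos and at 63.2, 42.8 and 58.2 in the wild types. The mutants were tightly grouped below all wild types, while the wild types were spread. *Matn4* fell by 0.74 (SE 0.16, adjusted *P* = 0.041). Its call was lost without any 1 of the 3 mutants or without wild type 3, with adjusted *P* of 0.11 to 0.15, and with a term for Y-linked counts (0.15) or with length and GC offsets (0.058).

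*Matn1*, a matrilin made by maturing chondrocytes, was at 2.63, 3.70 and 5.48 CPM in the *Carm1* KO/KO embryos and at 10.2, 5.33 and 7.56 in the wild types. The third mutant lay just above the lowest wild type, so the groups overlapped. The log2 fold change of -0.95 (SE 0.30) was the most negative of the 10 but was not called (adjusted *P* = 0.078). It passed in 7 of 16 alternative settings, among them those without mutant 3 (0.0042), without wild type 1 (0.033) or without wild type 2 (0.0019). *Matn3*, a matrilin of the growth plate, was at 1.92, 2.07 and 2.12 CPM in the mutants and at 2.25, 1.72 and 3.17 in the wild types, and its change of -0.22 (adjusted *P* = 0.64) turned to 0.054 without wild type 3.

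**Figure D2:**
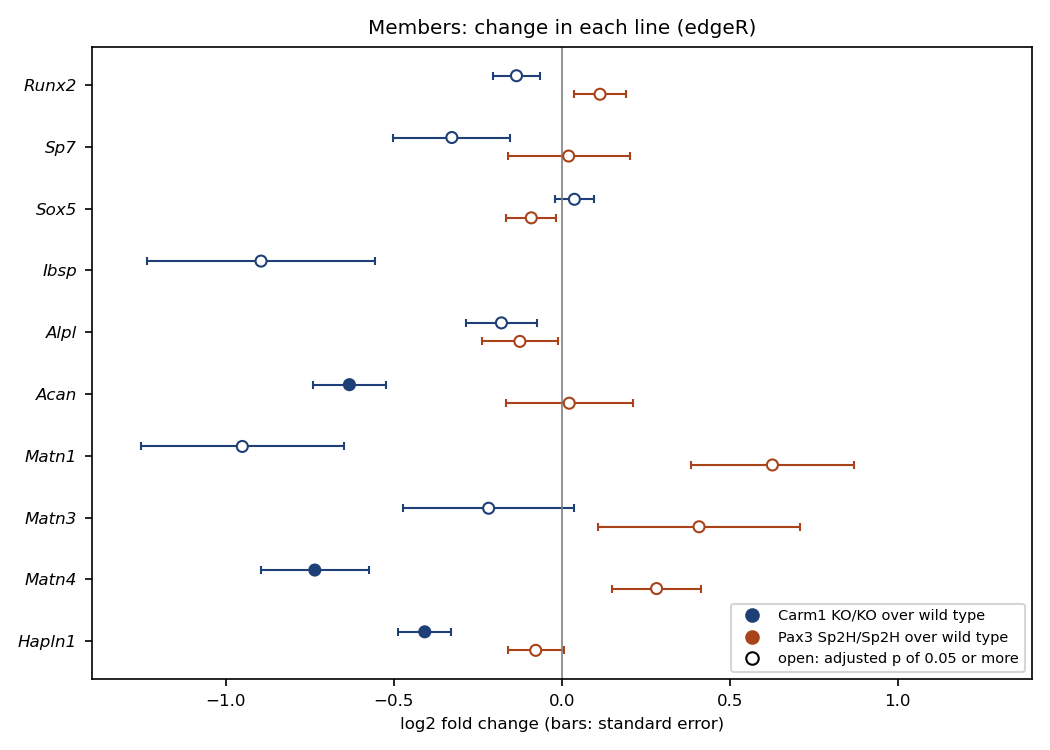
Log2 fold change of each marker, mutant over wild type, with its standard error, in the *Carm1* line (blue) and the *Pax3* line (brown). Filled points were called, namely *Acan*, *Matn4* and *Hapln1* in the *Carm1* line, and *Matn1* has its points farthest apart, at -0.95 and 0.63. *Ibsp* was not tested in the *Pax3* line.

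In *Pax3* Sp2H/Sp2H embryos none of the markers was called. Of the 9 tested by edgeR, 0 had an adjusted *P* below 0.05 and 1, *Matn1*, had an unadjusted *P* below 0.05. DESeq2 also called 0. Of all 15724 genes tested in this line, 24.5% were called, 14.0% higher and 10.5% lower. The median log2 fold change of the 9 was 0.022, beside -0.0026 over all genes. *Ibsp* was not tested, with 1, 9 and 10 counts in the mutants and 3, 6 and 6 in the wild types.

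Only *Matn1* and *Runx2* did not overlap between the genotypes, both higher in the mutants, a pattern shown by 20.7% of all genes tested in that line (39.6% without overlap in either direction). *Matn1* was at 1.88, 2.46 and 3.22 CPM in the *Pax3* Sp2H/Sp2H embryos and at 1.61, 1.51 and 1.76 in the wild types, on 42, 54 and 76 counts against 33, 26 and 41. Its log2 fold change was 0.63 (SE 0.24, adjusted *P* = 0.058). The value moved across the threshold without mutant 1 (adjusted *P* = 0.033), with no filter on low counts (0.047), with at least 10 counts required in every library (0.049) and with a term for Y-linked counts (0.026). *Runx2* was at 31.6, 30.2 and 31.6 CPM in the mutants against 28.6, 29.0 and 28.7, a small difference of 0.11 (SE 0.078, adjusted *P* = 0.31).

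The other cartilage matrix markers overlapped in the *Pax3* line. *Acan* was at 9.16, 10.5 and 12.4 CPM in the *Pax3* Sp2H/Sp2H embryos and at 12.7, 11.8 and 7.35 in the wild types, where wild type 3 was low. The log2 fold change was 0.02 (SE 0.19, adjusted *P* = 0.95) and turned to -0.19 without that wild type. *Matn4* was at 35.4, 36.0 and 39.0 CPM in the mutants against 32.3, 35.8 and 23.1, with the same wild type lowest. Its difference of 0.28 (SE 0.13, adjusted *P* = 0.15) passed the test only when wild type 2 was left out (0.42, adjusted *P* = 0.014).

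*Hapln1* ranged from 21.2 to 23.8 CPM in *Pax3* Sp2H/Sp2H embryos and from 22.8 to 24.1 in wild types, a log2 fold change of -0.08 (adjusted *P* = 0.54). *Matn3* lay between 1.07 and 1.502 CPM against 0.811 to 1.07, a change of 0.41 (SE 0.30, adjusted *P* = 0.35). *Sp7* in the first mutant, at 4.83 CPM, stood above the other 5 embryos of the line, which lay between 3.10 and 3.87, and its change was 0.02 (adjusted *P* = 0.95). *Sox5* and *Alpl* differed by -0.09 and -0.12 (adjusted *P* = 0.40 and 0.46).

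Whether the *Carm1* effect differed from the *Pax3* effect was tested as an interaction over all 12 libraries, each effect being set against the wild types of its own line. The lines also differ in strain and in the laboratory that bred them, so mutation and line cannot be told apart in this test. Of the 10 markers, 2 differed, *Matn1* and *Matn4*, both with the *Carm1* effect below the *Pax3* effect. Of 16292 genes 19.1% were called in either direction, 10.5% in that direction and 8.65% in the other. The count of 2 among the 10 markers was thus near the share called in either direction over all genes. The difference was -1.57 for *Matn1* (SE 0.40, adjusted *P* = 0.0086) and was called in all 19 alternative settings. For *Matn4* it was -1.01 (SE 0.25, adjusted *P* = 0.024), and it missed the threshold without *Carm1* KO/KO embryo 1 or 2, without *Carm1*-line wild type 3 or without *Pax3* Sp2H/Sp2H embryo 3 (adjusted *P* of 0.053 to 0.059).

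*Acan* and *Hapln1*, which fell in the *Carm1* line and were not called in the *Pax3* line, were not shown to differ between the lines. Their differences were -0.65 (SE 0.28, adjusted *P* = 0.13) and -0.32 (SE 0.12, adjusted *P* = 0.057). For *Hapln1* the adjusted *P* was 0.013 without *Carm1*-line wild type 2, 0.048 with at least 10 counts in every library, and 0.0052 with length and GC offsets. *Runx2* differed by -0.24 (SE 0.10, adjusted *P* = 0.11), with 0.043 when *Carm1* KO/KO embryo 2 was left out and 0.036 with length and GC offsets. The remaining 5 markers had adjusted *P* of 0.28 to 0.88.

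The level of each marker was also set on a scale of CPM per kilobase of its longest annotated transcript, on which genes can be compared with each other. In wild types of the *Carm1* line *Matn4* was highest, at 13.3 ± 2.59 (SD, n = 3), followed by *Hapln1* at 6.76 ± 0.838, *Sox5* at 6.50 ± 0.254 and *Runx2* at 6.06 ± 0.302. The last 3 of these did not differ beyond their spread. *Alpl* (4.60 ± 0.0965), *Matn1* (3.85 ± 1.22) and *Acan* (2.999 ± 0.410) came next, the embryo-to-embryo range of *Matn1* reaching across both of its neighbours. *Sp7* stood apart below them at 1.60 ± 0.0863, and *Matn3* (0.790 ± 0.243) and *Ibsp* (0.687 ± 0.109) were lowest and overlapped. With the summed length of all exons in place of the longest transcript, *Matn4* was at 10.6, *Hapln1* at 6.55, *Runx2* at 4.43, *Sox5* at 3.28 and *Alpl* at 2.88. On that scale *Hapln1*, *Runx2* and *Sox5* no longer lay together, and *Sox5* came below *Matn1* (3.85).

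In wild types of the *Pax3* line the order was led again by *Matn4* at 7.39 ± 1.60 CPM per kilobase, with *Sox5* at 6.67 ± 0.608 within its spread. *Alpl* (4.60 ± 0.421), *Runx2* (4.45 ± 0.0282) and *Hapln1* (4.08 ± 0.121) followed, then *Acan* (1.44 ± 0.390), *Sp7* (1.22 ± 0.0334), *Matn1* (0.812 ± 0.0642), *Matn3* (0.318 ± 0.0445) and *Ibsp* (0.121 ± 0.0487). *Alpl* and *Runx2* lay within their spread of each other, as did *Acan* and *Sp7*, and the 3 lowest genes stood apart. With the summed length of all exons *Matn4* was at 5.87 and *Hapln1*, at 3.95, came next, above *Sox5* (3.36), *Runx2* (3.25) and *Alpl* (2.88). The wild types of both lines were scaled separately and differ in strain and laboratory, so their levels are given side by side without a test. Mean CPM in the *Carm1*-line and *Pax3*-line wild types was 7.70 and 1.63 for *Matn1*, 1.42 and 0.251 for *Ibsp*, 22.1 and 10.6 for *Acan*, and 54.7 and 30.4 for *Matn4*. *Sox5* was at 47.1 and 48.3, and *Alpl* at 11.6 in both.

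**Figure D3:**
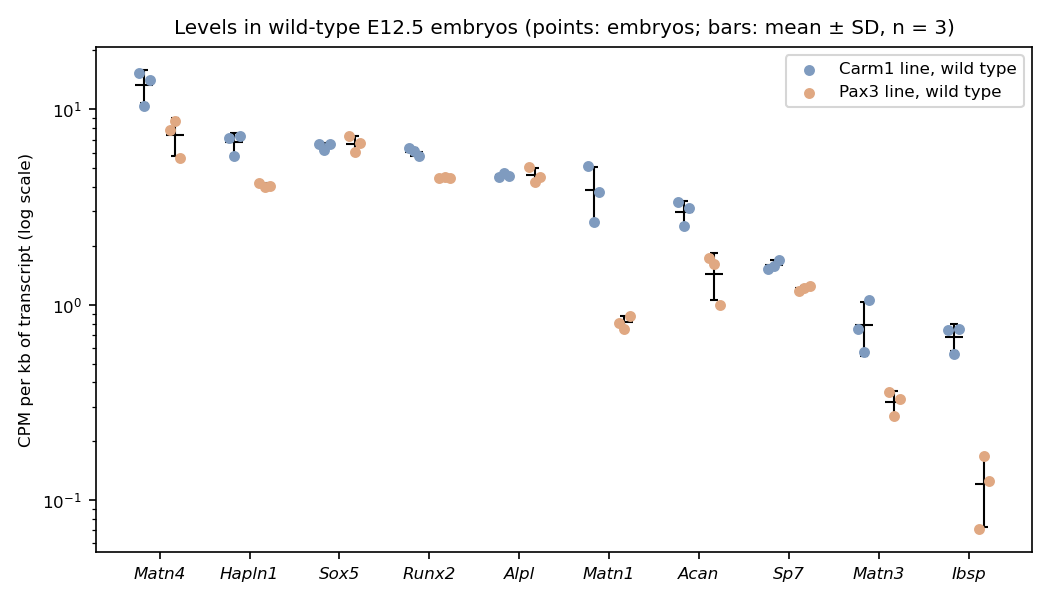
CPM per kilobase of transcript (log axis) in the wild types of the *Carm1* line (blue) and the *Pax3* line (orange), ordered by the mean in the *Carm1* line. Points are embryos and bars the mean ± SD (n = 3). *Sox5* and *Alpl* lie closest together, while *Matn1* and *Ibsp* are farthest apart.

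Embryos of a group also varied together in these genes. After subtraction of each group's mean, the 10 pairs among *Acan*, *Hapln1*, *Matn1*, *Matn3* and *Matn4* had correlations of log2 CPM over the 12 libraries of 0.26 to 0.79, all above 0, with a median of 0.45. The highest was that of *Acan* with *Matn4*. Over all 45 pairs of the 10 markers the correlations ran from -0.62 to 0.79 with a median of 0.21. The points share a library, and with it depth and tissue composition, so these values describe the embryos sampled.

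In wild type 2 of the *Carm1* line all 5 cartilage matrix markers lay below the group mean, by 0.21 for *Hapln1* to 0.47 for *Matn1* on the log2 scale, and their mean deviation was -0.33. The other wild types of that line had mean deviations of 0.18 and 0.15. The number of markers called lower in the *Carm1* line was 4 instead of 3 without wild type 2, and also 4 without wild type 1, whose mean deviation was 0.18. The largest mean deviation in the *Pax3* line was that of mutant 1, at -0.18.

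The genes most like each marker by this measure, among 14793 genes, belonged to none of the cartilage or bone lists, and their correlations over the 9 markers with a mean of at least 1 CPM were 0.87 to 0.95. They are the highest of 14793 correlations over 12 libraries, so such values can arise by selection alone, and none was tested. *Tbc1d4*, *Tmem145* and *Acrbp* stood nearest to *Matn1*, with correlations of 0.93 to 0.95. For *Acan* they were *Ppp4r1l-ps*, *Smim6* and *Ippk* (0.93 to 0.94), for *Matn4* *Wnt6*, *Igf2as* and *Brca1* (0.92), and for *Hapln1* 1700029J07Rik, *Pex7* and *Abhd13* (0.87 to 0.88).

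**Figure D4:**
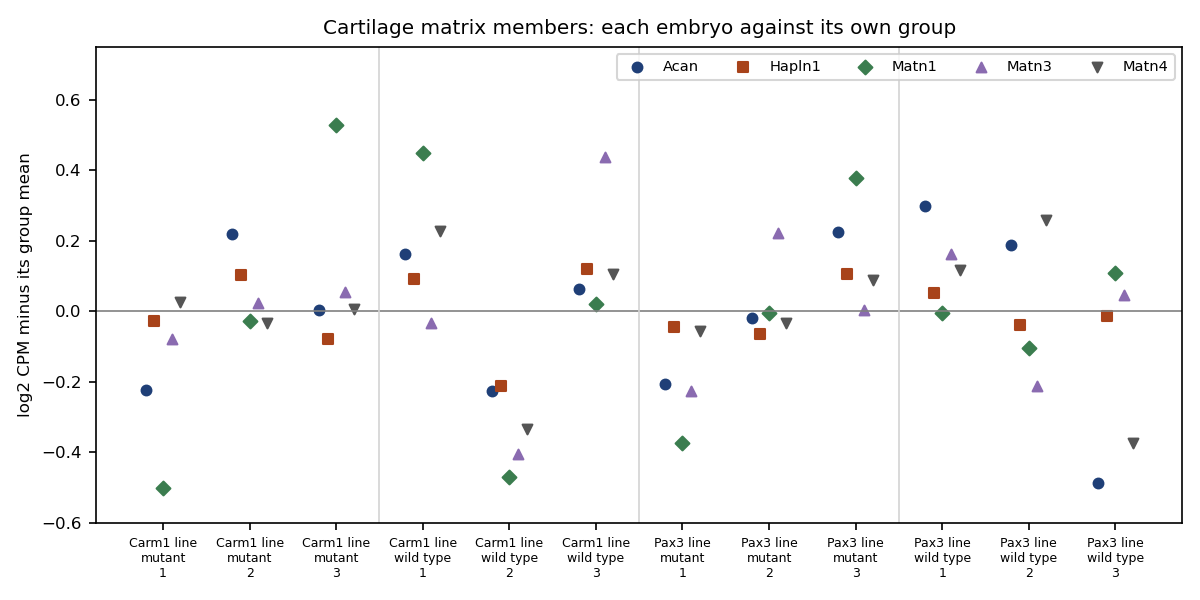
Log2 CPM of the 5 cartilage matrix markers in each of the 12 embryos minus the mean of its group, with vertical lines between groups. In wild type 2 of the *Carm1* line all 5 lie below 0, from -0.21 to -0.47.

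The other genes of the pathway were read from lists of cartilage and bone genes. Of 29 other cartilage matrix genes, 25 were tested in the *Carm1* line, where 11 were lower and 0 higher, with a median log2 fold change of -0.28. Over all genes tested in that line 7.83% were called lower and 5.49% higher. *Cytl1*, a cytokine-like protein secreted by chondrocytes, changed most, from 3.62, 2.97 and 2.97 CPM in the wild types to 1.21, 0.560 and 1.12 in the *Carm1* KO/KO embryos, a log2 fold change of -1.71 (SE 0.28, adjusted *P* = 4.6e-05). The others were the collagen genes *Col9a1*, *Col9a2*, *Col9a3*, *Col11a1* and *Col11a2*, and *Matn2*, *Cnmd*, *Otor*, *Mia* and *Papss2*. *Col2a1* itself was not called, at 587.6 to 599.2 CPM in the mutants and 538.7 to 688.9 in the wild types (adjusted *P* = 0.99). Without *Carm1* KO/KO embryo 1 or embryo 2 the count of lower genes was 7.

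In the *Pax3* line 24 of the list were tested, 8 were higher and 0 lower, and the median was 0.14. Over all genes tested in that line 14.0% were called higher and 10.5% lower. *Hapln3*, a relative of *Hapln1*, had the highest fold change among the genes called, at 0.76 (SE 0.22, adjusted *P* = 0.012), followed by *Col11a2* at 0.68, *Col9a3* at 0.64 and *Col9a2* at 0.59. *Col9a1*, *Col27a1*, *Mia* and *Mgp* were the others. Without *Pax3*-line wild type 1 the count was 5, and *Hapln3* (adjusted *P* = 0.053) and *Col9a3* (0.055) were among those lost. *Hapln3* was lost without mutant 1 as well (0.056). *Col2a1* was not called in this line (0.26, SE 0.12, adjusted *P* = 0.14), but was called higher without mutant 1 (0.34, adjusted *P* = 0.026). The genes lower in *Carm1* KO/KO and higher in *Pax3* Sp2H/Sp2H were *Col9a1*, *Col9a2*, *Col9a3*, *Col11a2* and *Mia*, named after their values were seen. They are 45.5% of the genes called lower in the *Carm1* line, beside 33.3% of the whole tested list called higher in the *Pax3* line. They are 62.5% of the genes called higher in the *Pax3* line, beside 44% of the tested list called lower in the *Carm1* line. The overlap was not tested, and the share of all genes with both calls was not counted.

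The interaction test called 10 of 25 genes of this list, 9 with the *Carm1* effect below the *Pax3* effect and 1, *Epyc*, above it. Over all genes 10.5% were called below and 8.65% above. The median difference in the list was -0.38. It was -2.48 for *Cytl1* (SE 0.45, adjusted *P* = 1.6e-04), -1.11 for *Col9a3* (SE 0.16, adjusted *P* = 8.9e-04) and -1.09 for *Col11a2* (SE 0.23, adjusted *P* = 0.0095). *Matn1* and *Matn4* thus differed between the lines in the same direction as the collagen IX genes and *Col11a2*.

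**Figure D5:**
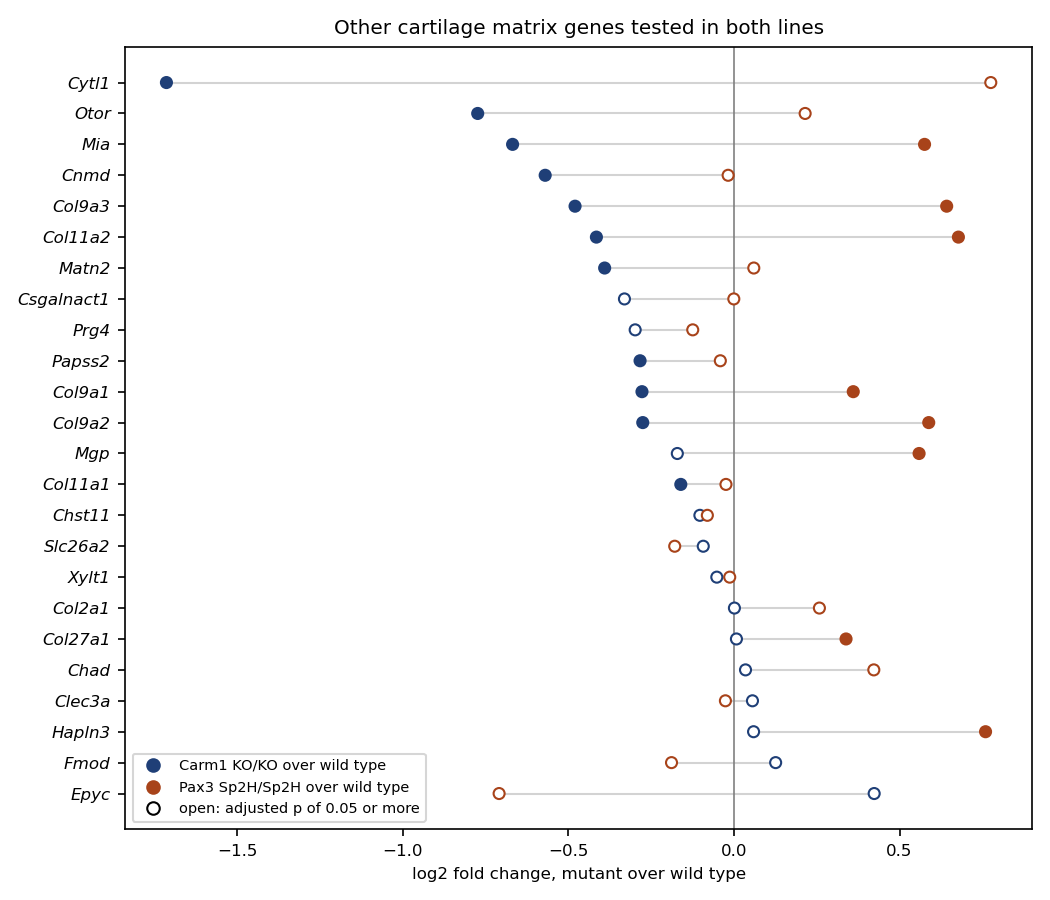
Log2 fold change, mutant over wild type, of the 24 other cartilage matrix genes tested in both lines, in the *Carm1* line (blue) and the *Pax3* line (brown), filled where called and ordered by the *Carm1* line. Filled blue points are all below 0 and filled brown points all above 0, and of the filled points *Cytl1* at -1.71 and *Hapln3* at 0.76 lie farthest out.

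Of the regulators and signals around these genes, *Sox9* was not called in either line, at 0.08 in *Carm1* KO/KO (adjusted *P* = 0.28) and 0.06 in *Pax3* Sp2H/Sp2H (adjusted *P* = 0.45). With length and GC offsets it was called higher in the *Carm1* line (0.11, adjusted *P* = 0.037), as it was with the replicate block and offsets (0.10, adjusted *P* = 0.040). *Sox6*, the close relative of *Sox5*, was at 58.4 to 60.6 CPM in *Carm1* KO/KO embryos and 67.8 to 73.5 in wild types, and fell by 0.24 (SE 0.053, adjusted *P* = 0.0020). Its change in the *Pax3* line was -0.07 (adjusted *P* = 0.40). In the *Carm1* line 3 of 14 cartilage regulators were called, *Sox6* and *Nfatc2* lower and *Foxc1* higher (0.35), beside 13.3% of all genes. Of 18 growth plate signals, *Ihh*, the hedgehog ligand of prehypertrophic chondrocytes, fell by 1.01 (SE 0.26, adjusted *P* = 0.0079), *Fgf18* fell by 0.70 (SE 0.15, adjusted *P* = 0.0015) and *Fgfr3* rose by 0.26. Among the regulators 6 of 14 were called in the *Pax3* line, 4 higher and 2 lower, the latter *Trps1* and *Runx3*, and 4 of 18 signals, all higher, namely *Fgfr3*, *Gdf5*, *Nog* and *Gli1*. Of all genes tested in that line 24.5% were called. The call of *Runx3* (-0.60) was lost with DESeq2 (adjusted *P* = 0.074) and without mutant 2 or 3 or wild type 2 or 3 (0.055 to 0.19).

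The lists nearest to *Runx2*, *Sp7*, *Alpl* and *Ibsp* were read in the same way, beside 13.3% of all genes called in the *Carm1* line and 24.5% in the *Pax3* line. Among 11 other osteoblast regulators the lowest adjusted *P* in the *Carm1* line was 0.063, for *Msx2*. In *Pax3* Sp2H/Sp2H embryos *Msx1* and *Twist1* were higher and *Sp3* and *Zfp521* lower. Of the other osteoblast matrix genes, 4 of 15 were lower in *Carm1* KO/KO embryos, *Col1a1* (-0.32), *Col1a2* (-0.34), *Postn* (-0.22) and *P3h1* (-0.17). In *Pax3* Sp2H/Sp2H embryos 3 of 16 were lower, *Postn* (-0.50), *Cdh11* (-0.23) and *Enpp1* (-0.43). With length and GC offsets *Postn* was at -0.31 in that line and not called (adjusted *P* = 0.099). *Col1a1* and *Col1a2* are also made by fibroblasts. Among 8 sclerotome genes, *Uncx* was higher (0.29) and *Pax1* and *Meox1* lower in *Carm1* KO/KO embryos, and *Uncx* alone was called, higher, in *Pax3* Sp2H/Sp2H embryos. Of 8 tendon and joint genes, *Thbs4* (-0.69), *Kera* and *Osr2* were lower in the *Carm1* line. *Scx* was higher and *Kera* lower (-0.67) in the *Pax3* line. *Uncx* in the *Carm1* line was not called by DESeq2 (adjusted *P* = 0.069) or without mutant 1 or 3 or wild type 2 (0.088 to 0.18), nor *Kera* in the *Pax3* line without mutant 3 or wild type 1 (0.11 and 0.13).

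Some markers of other cell types moved with the genotypes as well. In the *Carm1* line 9 of 10 hepatocyte markers were lower, with summed levels of 760.2 to 897.3 CPM in *Carm1* KO/KO embryos and 1434 to 1754 in wild types. There 8 of 10 erythroid, 6 of 10 skeletal muscle, 5 of 10 neuron and 2 of 9 osteoclast and macrophage markers were called lower. Of any of these lists 0 were called higher, and over all genes 7.83% were called lower. The erythroid marker *Hba-x* went the other way, at 1761 to 2125 CPM against 636.4 to 1164 (log2 fold change 1.10, adjusted *P* = 0.077). Summed erythroid levels overlapped, at 7276 to 8579 CPM against 5444 to 9437. Summed skeletal muscle markers were at 613.0 to 672.1 CPM against 784.3 to 948.6. Of the skeletal muscle markers 9 of 10 were lower in the *Pax3* line, at 266.7 to 301.2 CPM against 465.0 to 530.7. Also lower in that line were 4 of 10 neuron, 2 of 10 hepatocyte, 1 of 10 erythroid and 1 of 9 osteoclast and macrophage markers. Over all genes 10.5% were called lower there, and the erythroid and the osteoclast and macrophage counts were near that share. No marker was at 0 in all libraries of a line. Their part in the differences of the cartilage and bone markers was not tested.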

How the data were processed

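The authors extracted RNA from homogenized whole embryos, enriched polyA RNA, used STAR for alignment to mm10 and featureCounts for counting per gene. The deposited values are these raw counts, whole numbers with no normalization or pooling. Tool versions, the strand setting and the treatment of multi-mapping reads are not given in the sources used here.

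Counts were tested here in each line separately under R 4.3.3 with the robust quasi-likelihood fit of edgeR (4.0.16) after TMM and filterByExpr, and *P* values received Benjamini-Hochberg adjustment over all genes tested. The difference between the lines was an interaction over all 12 libraries. DESeq2 (version 1.42.0) was an alternative, and replicates correlated at 0.989 to 0.994 in log2 CPM (prior count 2). Transcript lengths came from GENCODE M21, which matched 21777 of 23420 symbols as written and 1275 by an older symbol. Promoter windows came from RefSeq.

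The markers, lists and tests were chosen with earlier results of these data known. Genes named besides the 10 markers, the targeted genes, *Sox9*, *Sox6* and *Col2a1* are, in each line, the up to 4 higher and 4 lower called list genes with the largest fold change, no overlap between genotypes and a mean of 1 CPM or more, and the 3 genes most like each marker. Other list genes were named after their values were seen. Not every gene that the rule picks is reported here. The tests were checked on simulated counts. With 3 embryos against 3 the smallest exact permutation *P* of any one gene is 0.1.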

Additional observations from a re-analysis of the deposited data

Results flagged for a closer look

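The difference between mutant and wild type was not the same in the 2 lines for *Matn1* and *Matn4*. The *Carm1* effect minus the *Pax3* effect was -1.57 on the log2 scale for *Matn1* and -1.01 for *Matn4*. Mutation, strain and laboratory differ together between the lines and cannot be told apart. Both were flagged by the interaction test, which called 19.1% of all genes in either direction. *Matn1* was called in neither line alone (adjusted *P* = 0.078 and 0.058, edgeR), so its difference rests on opposite directions, -0.95 in *Carm1* KO/KO and 0.63 in *Pax3* Sp2H/Sp2H embryos.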

How the results depend on the processing

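In the *Carm1* line the number of markers called ranged from 2 to 4 and in the *Pax3* line from 0 to 1 when embryos were left out singly. In the *Pax3* line it was 1 with no filter, with at least 10 counts in every library and with a term for Y-linked counts. Markers differing between the lines numbered 1 to 3 with embryos left out and 4 with length and GC offsets, an alternative added after seeing the data. Over all genes, 2106 calls in the *Carm1* line became 3206 with length and GC offsets and 3210 with the replicate block and offsets, where the share called higher rose from 41.2% to 59.6% with the offsets. Without single embryos the calls over all genes were 1224 to 2290 in the *Carm1* line and 2454 to 4103 in the *Pax3* line. The other cartilage matrix genes, also added, gave 7 to 11 lower in the *Carm1* line and 5 to 7 higher in the *Pax3* line without single embryos, and 5 higher with the replicate block and offsets. The causes of these shifts were not tested.

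Among the genes recomputed, signs turned for uncalled values only. In the *Carm1* line *Matn3* was at 0.055 with the Y-linked term and -0.42 to 0.054 without single embryos. *Col2a1* was at -6.0e-04 with at least 10 counts, -0.045 with the Y-linked term, and -0.062 to 0.12 without single embryos. In the *Pax3* line *Sp7* was at -0.048 with the Y-linked term, -0.032 with offsets, -0.044 with the replicate block and offsets, and -0.18 to 0.15 without single embryos. *Acan* was at -0.19 to 0.18 without single embryos. With offsets, and with the replicate block and offsets, *Sox5* was at 0.038 and 0.040, *Hapln1* at 0.082 in both, and *Sox6* at 0.053 and 0.052. The difference between the lines for *Alpl* was 0.079 with offsets and -0.14 to 0.079 over all alternatives, as 0.019 without *Pax3* Sp2H/Sp2H embryo 2.

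Deviations of embryos with the same replicate number correlated at -0.038 to -0.0052 in the *Carm1* line and -0.066 to 0.20 in the *Pax3* line. Embryos with different numbers correlated at -0.28 to 0.18 in the *Pax3* line. With 3 embryos per group these values cannot decide whether the numbers pair embryos, and the main tests did not pair them. With the replicate block, 4 markers were called in the *Carm1* line and 0 in the *Pax3* line, and 1787 and 4177 genes in all. *Ibsp*, with at most 32 counts, and *Matn3* and *Matn1* in the *Pax3* line, limit what can be detected.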
